A study of Mus musculus with 9 samples.

Results

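The genes described here carry iron into macrophages, store it, release it from storage and export it. The set holds 10 genes of the 56775 in each deposited table, chosen by gene symbol: Tfrc, Steap3, Slc11a2, Slc11a1, Fth1, Ftl1, Ncoa4, Slc40a1, Aco1 and Ireb2. Macrophages take up transferrin-bound iron through the transferrin receptor and iron from engulfed red cells, keep it in ferritin shells, free it again when ferritin is broken down in lysosomes, and send it out through ferroportin. When iron is scarce, the iron regulatory proteins encoded by Aco1 and Ireb2 bind RNA hairpins called iron-responsive elements. Binding near the start of an mRNA blocks its translation, and binding in the tail of the transferrin receptor mRNA protects that mRNA from decay. RNA levels of ferritin and ferroportin therefore do not show how much of their protein was made.

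The cells were bone marrow-derived macrophages from C57BL/6 mice, cultured from marrow for 7 days. The medium held 15% of an L-929 supernatant, which supplies the macrophage growth factor CSF-1. Wild-type (WT) cells were sampled at 0 h, without oxidized low-density lipoprotein (ox-LDL), and after 24 h with ox-LDL at 20 µg/mL. Cells that lack MKP5 (MKP5-/-), a phosphatase of the p38 and JNK kinases encoded by Dusp10, were sampled after 24 h with the same ox-LDL. Each group had 3 libraries. Untreated WT cells at 24 h and MKP5-/- cells at 0 h were not analysed here, so ox-LDL and a further 24 h of culture cannot be told apart, and the genotypes were compared in treated cells alone. The labels do not say whether replicates came from separate animals or cultures, so the p-values may measure only technical spread. In bulk RNA, fewer cells of a type and less RNA per cell cannot be told apart.

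The libraries held 11140000 to 19875435 reads, the fewest in the MKP5-/- group. Dusp10 had 41, 48 and 44 reads in the WT 0 h libraries, 43, 38 and 40 at WT 24 h, and 4, 6 and 4 in MKP5-/- cells. The macrophage marker list (9 genes, Adgre1, Cd68 and Csf1r among them) was detected throughout, at a summed 7240 to 7410 CPM (reads scaled to one common library size) at WT 0 h, 17000 to 19800 at WT 24 h and 12000 to 13600 in MKP5-/- cells. Of its 9 genes, 6 were called higher over 24 h in WT cells, Lyz2, Csf1r and Adgre1 among them, and 3 lower (Cd68, Fcgr1 and Cd14). Between the genotypes at 24 h, 3 were called higher (Cd14, Cd68 and Fcgr1) and 3 lower (Lyz2, Mertk and Csf1r). Lyz2 held the most reads of the 9 in every library and so weighed most on the sums. Its log2 fold change was 1.84 over 24 h in WT cells (adjusted p = 7.52e-09 with limma). Between the genotypes at 24 h it was -0.92 (adjusted p = 1.53e-05 with limma). Marker lists of other cell types also differed between groups. The 11 neutrophil genes summed to 107 to 116 CPM at WT 0 h, 0.310 to 0.783 at WT 24 h and 0.581 to 1.21 in MKP5-/- cells, and Camp, Elane, Retnlg and Ly6g had 0 reads in both 24 h groups. The 10 fibroblast genes summed to 7.36 to 10.4 at WT 0 h, 102 to 124 at WT 24 h and 15.4 to 32.7 in MKP5-/- cells. Of the 8 tested, 6 were called higher over 24 h in WT cells, and Pdgfra and Thy1 were not called. Between the genotypes at 24 h the same 6 were called lower and Pdgfra was not called. Thy1 went the other way and was higher in MKP5-/- cells (log2 fold change 0.85, adjusted p = 0.0145 with limma). The 8 osteoclast genes summed to 90.1 to 100 at WT 0 h, 234 to 288 at WT 24 h and 465 to 574 in MKP5-/- cells. Calcr had 0 reads in both WT groups. Of the 7 tested, 5 were called higher in MKP5-/- than in WT cells at 24 h, Nfatc1 was called lower and Ctsk was not called. The 10 erythroid genes with a row in the tables summed to 2.32 to 4.67 CPM, 5.29 to 6.69 and 5.51 to 8.53 in that order, every treated library above every untreated one. Epor was the 1 called of the 3 tested (log2 fold change 3.60 in WT cells, adjusted p = 2.24e-06 with limma). The 6 dendritic cell genes summed to 2.27 to 2.57, 0.826 to 1.55 and 0.726 to 1.94, the untreated libraries highest. The 12 cell cycle genes summed to 1520 to 1620, 1370 to 1930 and 1330 to 1510. Of these 12, 6 were called higher and 4 lower over 24 h in WT cells, and 3 higher and 6 lower between the genotypes at 24 h. Beside all these marker counts, 27.4% of all genes tested were called higher and 28.1% lower over 24 h in WT cells. Between the genotypes at 24 h, 11.8% of all genes tested were called higher and 16.9% lower. These are differences in marker RNA, and cells of each type were not counted here. The part of these marker differences in the iron results below was not tested.

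A search for iron-responsive elements showed which of the genes have an annotated transcript with a matching site, and where. The deposited values are per gene, so they do not show whether the transcripts with a site were the ones present. Transcripts of the GENCODE M21 annotation (GRCm38) were searched for an unpaired C, 5 paired bases, the loop CAGTGN and at least 4 of 7 pairs below the C. The lower stem minimum was set so that the known ferritin site was kept, so finding that site is no result. The pattern matched 8 sites in 5 of the 10 genes. Capitals mark the unpaired C and the 6-base loop. The first 3 sites lie in 5′ UTRs, the next 4 in the 3′ UTR of Tfrc, and the last, which has 1 extra unpaired base in the upper stem, in the 3′ UTR of Slc11a2.
Fth1: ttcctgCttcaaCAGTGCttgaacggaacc
Ftl1: gtcttgCttcaaCAGTGTttgaacggaaca
Slc40a1: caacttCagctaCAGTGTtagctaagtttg
Tfrc site 1: aattatCggaagCAGTGCcttccataatta
Tfrc site 2: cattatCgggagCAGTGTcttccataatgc
Tfrc site 3: ctatatCggagaCAGTGAtctccatatgtt
Tfrc site 4: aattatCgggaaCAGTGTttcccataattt
Slc11a2: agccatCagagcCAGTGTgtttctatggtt

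On GRCm38, the Fth1 site lies at chr19:9982732-9982761 on the plus strand, the Ftl1 site at chr7:45459778-45459807 on the minus strand and the Slc40a1 site at chr1:45925464-45925493 on the minus strand. The Tfrc sites lie on the plus strand at chr16:32631219-32631248, chr16:32631598-32631627, chr16:32631663-32631692 and chr16:32631710-32631739. The Slc11a2 site lies at chr15:100395152-100395181 on the minus strand. Among 21877 coding genes, 6 held the pattern without an extra base in a 5′ UTR, Fth1, Ftl1 and Slc40a1 among them, and 9 held it in a 3′ UTR, Tfrc among them. With 1 extra base, 8 genes held it in a 5′ UTR and 23 in a 3′ UTR. The 2 ferritin sites share the same upper stem and differ in the last base of the loop. The Slc40a1 site has another stem and the loop of Ftl1. A match is a description of sequence and not a measurement of binding.

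Levels below are the deposited values taken out of log2: CPM per kb of exon. Fold changes and their standard errors (SE) come from limma, with p-values adjusted over all 14726 genes tested, and a gene is called at an adjusted p below 0.05. After 24 h with ox-LDL, WT cells had 9 of the 10 genes called, 5 higher (Slc40a1, Ncoa4, Ireb2, Slc11a1 and Ftl1) and 4 lower (Steap3, Tfrc, Fth1 and Slc11a2). Aco1 was not called. Of all genes tested, 55.6% were called, 27.4% higher and 28.1% lower. The 10 genes were chosen with earlier results of these data known, so their counts are no test against the shares of all genes. The groups did not overlap for 9 of the 10 genes, against 64.1% of all genes. MKP5-/- cells differed from treated WT cells in 7 of the 10 genes, 3 higher (Slc11a2, Steap3 and Fth1) and 4 lower (Ncoa4, Slc40a1, Ireb2 and Ftl1), where 28.8% of all genes were called, 11.8% higher and 16.9% lower. For 6 of the 10 the genotypes did not overlap, against 45.0% of all genes. Scaling bears on that background: 1741 genes were higher and 2494 lower, against 2504 and 1586 with upper-quartile scaling and 2107 and 1995 with relative log expression scaling. Against WT 0 h, MKP5-/- cells had 6 of the 10 genes called, 3 higher (Slc40a1, Ncoa4 and Slc11a2) and 3 lower (Steap3, Tfrc and Fth1), where 56.4% of all genes were called, 25.0% higher and 31.4% lower. No overlap was seen for 7 of the 10, against 63.4% of all genes. There, 3679 genes were higher and 4624 lower, against 4775 and 3619 with upper-quartile scaling, which moved the median of all genes from -0.02 to 0.11 on the log2 scale. The median log2 fold change of the 10 genes was 0.08, -0.08 and 0.05 in the 3 comparisons, and that of all genes 0.00, -0.05 and -0.02. The 3 comparisons share libraries with one another, so their values stand side by side and are not independent of each other.

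**Figure D1:**
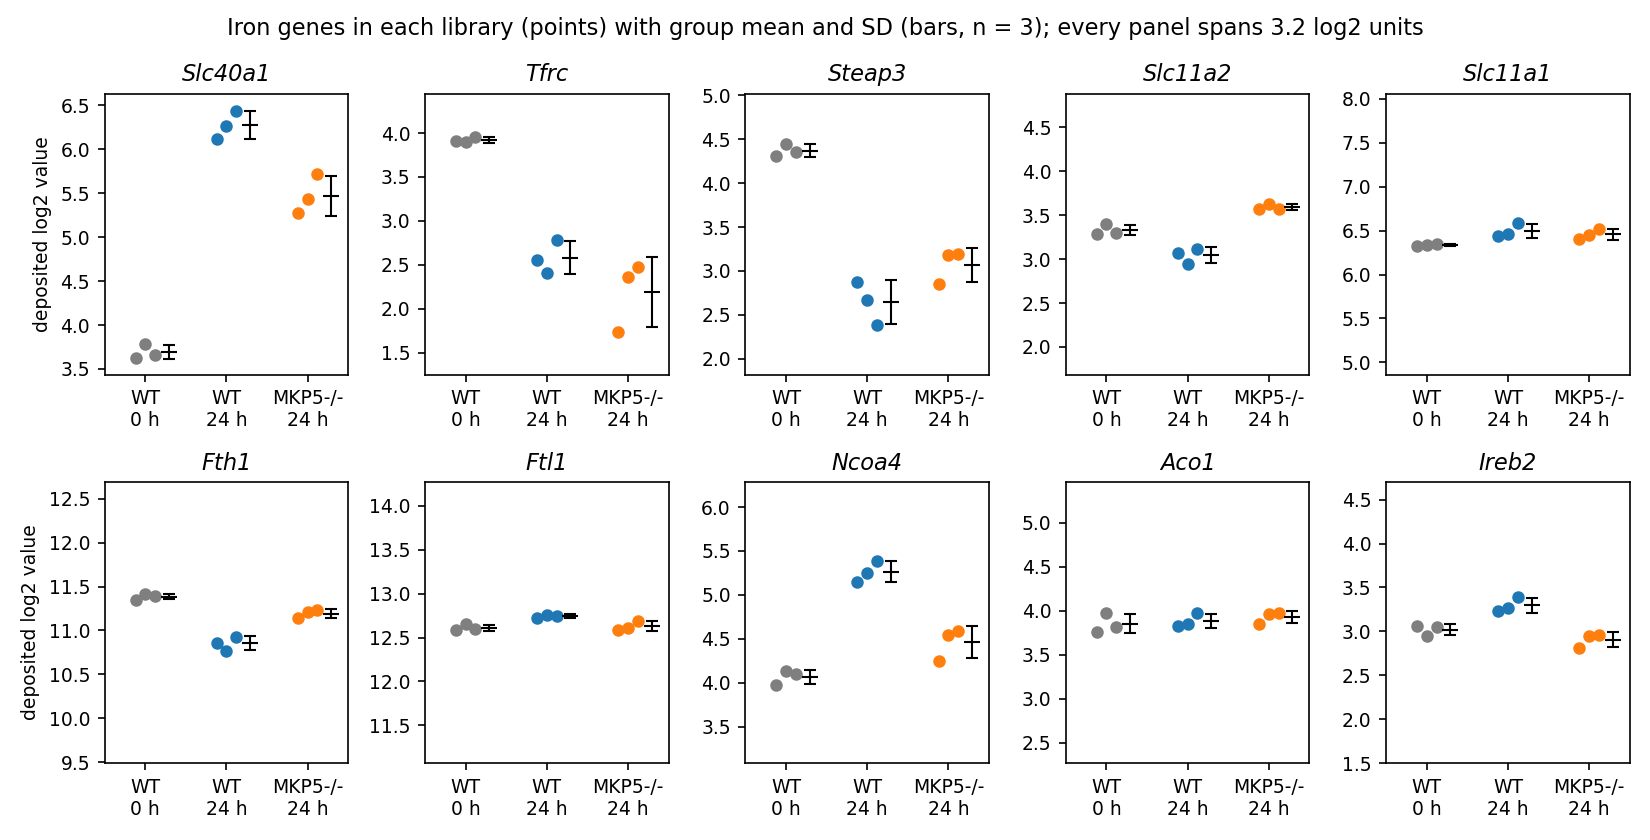
Deposited log2 values of the 10 iron genes (vertical axis) in each library (points) of WT 0 h, WT 24 h and MKP5-/- 24 h cells, with the group mean and SD (bars, n = 3); every panel spans the same number of log2 units. Slc40a1 and Ncoa4 are highest in the WT 24 h libraries, Tfrc and Steap3 are highest at WT 0 h, and Aco1 overlaps in all groups.

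Slc40a1 encodes ferroportin, the only known cellular iron exporter of vertebrates. Its level was 12.4, 13.8 and 12.6 in the WT 0 h libraries, 69.6, 77 and 86.6 at WT 24 h, and 38.6, 43.1 and 52.8 in MKP5-/- cells. The 3 groups did not overlap: every treated WT library was above every MKP5-/- library, and every MKP5-/- library was above every WT 0 h library. In WT cells Slc40a1 rose 5.99-fold (log2 fold change 2.58, SE 0.111, adjusted p = 1.99e-08 with limma), the 220th highest log2 fold change of all genes tested. It was 1.74-fold lower in MKP5-/- than in WT cells after ox-LDL, at a log2 fold change of -0.80 (SE 0.111, adjusted p = 0.000614 with limma). MKP5-/- cells still stood 3.44-fold above WT 0 h (log2 fold change 1.78, adjusted p = 3.06e-07). Ranked per length among all genes, Slc40a1 was at place 3298 to 3538 at WT 0 h, 421 to 510 at WT 24 h and 722 to 939 in MKP5-/- cells. These 3 calls held under all 18 alternative settings and left-out libraries.

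Tfrc encodes transferrin receptor 1, which carries transferrin-bound iron into cells. Its level was 15.1, 14.9 and 15.5 at WT 0 h, 5.88, 5.32 and 6.85 at WT 24 h, and 3.33, 5.14 and 5.58 in MKP5-/- cells. All 6 treated libraries were below all untreated ones, and the treated genotypes overlapped. Tfrc fell by 1.34 on the log2 scale in WT cells, a 2.53-fold difference (SE 0.168, adjusted p = 5.41e-05 with limma). Against WT 0 h, the MKP5-/- libraries were 3.32-fold lower (log2 fold change -1.73, adjusted p = 8.64e-06). The log2 difference between the genotypes at 24 h was -0.39 (SE 0.168), and it was not called (adjusted p = 0.108 with limma). Without MKP5-/- replicate 3, the highest of the 3, it was -0.53 and called (adjusted p = 0.0358), and without MKP5-/- replicate 1 it was -0.16 (adjusted p = 0.283). MKP5-/- replicate 1, the shallowest library with 282 Tfrc reads, was the lowest.

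Set against each other within a library, the exporter and the importer moved apart. The log2 level of Slc40a1 minus that of Tfrc was -0.28, -0.11 and -0.30 at WT 0 h, 3.57, 3.86 and 3.66 at WT 24 h, and 3.53, 3.07 and 3.24 in MKP5-/- cells. The difference does not depend on the scaling of the libraries, although its zero point depends on the annotated lengths of the genes. None of the groups overlapped. A two-sided exact permutation test gave p = 0.1 for each pair of groups, the smallest value that 3 against 3 libraries allow.

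Steap3 encodes a metalloreductase of endosomes that reduces ferric iron released from transferrin. Its level was 19.9, 21.9 and 20.4 at WT 0 h, 7.37, 6.35 and 5.26 at WT 24 h, and 7.20, 9.08 and 9.16 in MKP5-/- cells. Both treated groups were below every untreated library. In WT cells Steap3 was 3.31-fold lower at 24 h, at a log2 fold change of -1.73 (SE 0.124, adjusted p = 5.82e-07 with limma), and in MKP5-/- cells 2.46-fold lower than at WT 0 h (log2 fold change -1.30, adjusted p = 6.13e-06). Between the genotypes at 24 h the ranges overlapped through MKP5-/- replicate 1, and the log2 fold change of 0.43 was called (SE 0.124, adjusted p = 0.0265). That call was lost in 6 of 18 alternatives. Without WT 24 h replicate 2 the adjusted p was 0.0631, without WT 24 h replicate 3 it was 0.0808, without MKP5-/- replicate 2 it was 0.0784, and without MKP5-/- replicate 3 it was 0.0717. It was 0.0647 with no variance trend and 0.0551 with the 2 groups fitted alone.

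The SLC11 family moves ferrous iron and other divalent metals across endosomal and phagosomal membranes. Slc11a2 encodes DMT1, which takes iron from endosomes into the cytosol. Its level was 9.79, 10.5 and 9.86 at WT 0 h, 8.40, 7.66 and 8.69 at WT 24 h, and 11.9, 12.4 and 11.9 in MKP5-/- cells. The groups did not overlap, and the MKP5-/- libraries were above both WT groups. The log2 fold change was -0.29 in WT cells over 24 h (SE 0.0652, adjusted p = 0.00289 with limma), 0.55 between MKP5-/- and WT cells at 24 h (adjusted p = 0.000211) and 0.26 between MKP5-/- and WT 0 h cells (adjusted p = 0.00531). Of the 7 genes called between the genotypes at 24 h, Slc11a2 was the one whose MKP5-/- libraries lay above all 6 WT libraries.

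Slc11a1 encodes NRAMP1, the phagosomal metal transporter of macrophages. Its RNA was measured, and whether the protein was functional in these cells was not. Its level was 80.6, 81.0 and 81.4 at WT 0 h, 87.1, 88.1 and 96.0 at WT 24 h, and 84.7, 87.1 and 91.6 in MKP5-/- cells. The untreated libraries lay below all treated ones, while the treated genotypes overlapped. The WT difference was 1.11-fold (log2 fold change 0.16, SE 0.0495, adjusted p = 0.0186 with limma). It missed the threshold without WT 0 h replicate 1 (adjusted p = 0.0525), without WT 24 h replicate 3 (0.0668) and with no variance trend (0.0614). Neither MKP5-/- comparison was called, at log2 fold changes of -0.04 against WT 24 h (adjusted p = 0.556) and 0.12 against WT 0 h (adjusted p = 0.0672). The latter passed with 5 of the 18 alternatives, both other scalings among them (0.24 and 0.16), and also without WT 24 h replicate 3 (adjusted p = 0.0366) or MKP5-/- replicate 1 (0.0457).

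Ferritin is built from heavy chains, which oxidise iron, and light chains, which help form its mineral core. Fth1, the heavy chain, had a level of 2603, 2723 and 2682 at WT 0 h, 1860, 1743 and 1956 at WT 24 h, and 2255, 2374 and 2405 in MKP5-/- cells. The groups were fully separate, with MKP5-/- cells between the WT groups. Fth1 fell by 0.53 on the log2 scale in WT cells, a 1.44-fold difference (SE 0.046, adjusted p = 2.16e-06 with limma). It was 1.27-fold higher in MKP5-/- than in WT cells at 24 h (log2 fold change 0.34, adjusted p = 0.000439). The gap of -0.19 between MKP5-/- and WT 0 h cells was called (adjusted p = 0.0049), but not with upper-quartile scaling (-0.061, adjusted p = 0.191).

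Ftl1, the light chain, had a level of 6144, 6418 and 6208 at WT 0 h, 6724, 6937 and 6870 at WT 24 h, and 6144, 6234 and 6626 in MKP5-/- cells. The WT 24 h libraries were the highest. The changes were small: 1.09-fold higher in WT cells over 24 h (log2 fold change 0.13, SE 0.0367, adjusted p = 0.0107 with limma) and 1.08-fold lower in MKP5-/- than in WT cells at 24 h (log2 fold change -0.11, adjusted p = 0.0419). The former was not called with no variance trend (adjusted p = 0.0778). Of 18 alternatives, 11 ended the latter call, and the adjusted p ran from 0.0147 to 0.518. Upper-quartile scaling gave -0.024 (adjusted p = 0.518) and relative log expression scaling -0.065 (adjusted p = 0.114). Leaving out any WT 24 h library, MKP5-/- replicate 1 or 2, or WT 0 h replicate 1 or 3 also ended the call, at adjusted p from 0.0563 to 0.124. Against WT 0 h, MKP5-/- cells differed by 0.02 (adjusted p = 0.705), and upper-quartile scaling alone called that difference (0.14, adjusted p = 0.000766).

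The light-to-heavy balance, which no scaling affects, joins the changes of both chains. Over 24 h in WT cells the log2 fold change was -0.53 for Fth1 and 0.13 for Ftl1. The read numbers of both rest on annotated exon lengths that could not be checked, so the size of the ratio depends on those lengths. There were 0.912, 0.910 and 0.894 reads of Ftl1 per read of Fth1 at WT 0 h, 1.40, 1.54 and 1.36 at WT 24 h, and 1.05, 1.01 and 1.06 in MKP5-/- cells. The means were 0.905 ± 0.00987, 1.43 ± 0.0945 and 1.04 ± 0.0265 (SD, n = 3), and no groups overlapped. The exact two-sided permutation test gave p = 0.1 for each pair, the smallest 3 against 3 allow. Together the ferritin chains held 2.02 to 2.05% of all reads at WT 0 h, 1.79 to 1.83% at WT 24 h and 1.93 to 1.99% in MKP5-/- cells. Per length, Ftl1 ranked first of all genes at WT 0 h and in MKP5-/- cells and second at WT 24 h. Fth1 ranked 3 or 4 at WT 0 h, 11 or 12 at WT 24 h and 6 in MKP5-/- cells. The level of Fth1 per length is understated where reads come from its main mRNA, since the annotated exons span 3469 bases. Pseudogene rows held few reads beside their parents: Ftl1-ps1 had 2.17, 2.6 and 2.34% of the Ftl1 reads in the 3 groups, and Ftl1-ps2, Ftl2-ps and Fth1-ps each under 0.2%. How reads that match several of these copies were counted is not given in the sources used here.

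**Figure D2:**
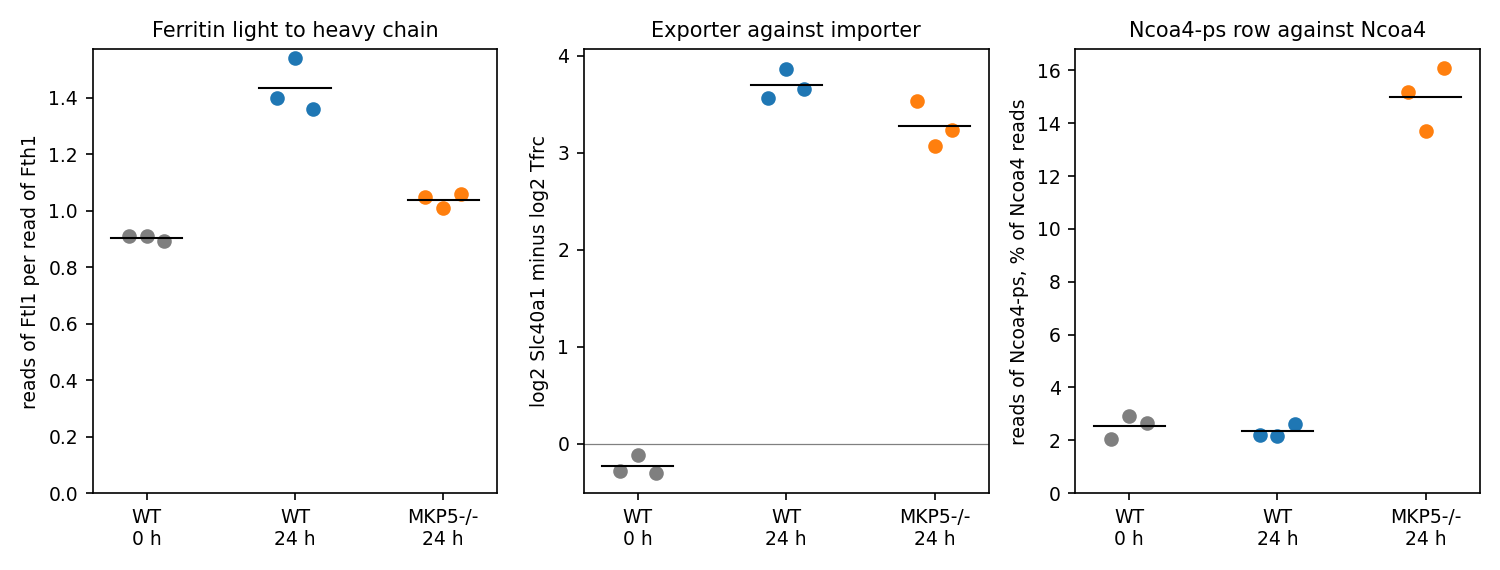
Per library (points, with group means as lines): reads of Ftl1 per read of Fth1 (left), log2 level of Slc40a1 minus log2 level of Tfrc (middle) and reads of the Ncoa4-ps row as a percentage of Ncoa4 reads (right), for WT 0 h, WT 24 h and MKP5-/- 24 h. The Ftl1 to Fth1 ratio is highest at WT 24 h, and the Ncoa4-ps share is 13.7 to 16.1% in MKP5-/- libraries and 2.06 to 2.92% in WT libraries.

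Ncoa4 encodes the cargo receptor that carries ferritin to lysosomes, where its iron is freed. Its level was 15.8, 17.5 and 17.1 at WT 0 h, 35.6, 38.1 and 41.8 at WT 24 h, and 19.0, 23.3 and 24.1 in MKP5-/- cells. The groups were fully separate, with MKP5-/- cells between the WT groups and nearer the untreated ones. In WT cells Ncoa4 rose 2.29-fold (log2 fold change 1.19, SE 0.0915, adjusted p = 8.41e-07 with limma). It was 1.74-fold lower in MKP5-/- than in WT cells at 24 h (log2 fold change -0.80, adjusted p = 0.00017). Against WT 0 h it was 1.31-fold higher (log2 fold change 0.39, adjusted p = 0.0037).

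A separate row, Ncoa4-ps, moved the other way between the genotypes; it was singled out after its values were seen. It had 56, 93 and 79 reads at WT 0 h, 151, 169 and 232 at WT 24 h, and 372, 463 and 601 in MKP5-/- cells, although the MKP5-/- libraries were the shallowest. The row was 3.68-fold higher in MKP5-/- than in treated WT cells, at a log2 fold change of 1.88 (SE 0.181, adjusted p = 7.9e-05 with limma), the 95th highest log2 fold change of all genes tested. As a share of Ncoa4 reads it was 2.06, 2.92 and 2.66% at WT 0 h, 2.22, 2.17 and 2.62% at WT 24 h, and 15.2, 13.7 and 16.1% in MKP5-/- cells. The name is not in GENCODE M21, so its reads rest on a fitted length of 1878 bases. Whether reads were divided between Ncoa4 and this row was not tested. With the reads of both rows added together, an alternative chosen after seeing the data, the log2 fold change between the genotypes at 24 h was -0.63 (adjusted p = 0.000727), and that between MKP5-/- and WT 0 h cells 0.56 (adjusted p = 0.000386).

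The regulatory proteins that read the hairpins printed above are described last of the 10. Aco1 encodes IRP1, which is a cytosolic aconitase when it holds an iron-sulfur cluster and binds RNA when it does not. Its level was 13.6, 15.7 and 14.2 at WT 0 h, 14.2, 14.4 and 15.7 at WT 24 h, and 14.4, 15.6 and 15.7 in MKP5-/- cells. All groups overlapped, and the log2 fold changes of 0.03, 0.05 and 0.07 (SE 0.0699) were not called, at adjusted p = 0.755, 0.651 and 0.382 with limma. Upper-quartile scaling called the last of them (0.20, adjusted p = 0.0141).

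Ireb2 encodes IRP2, which is broken down when iron is plentiful. Its level was 8.34, 7.74 and 8.30 at WT 0 h, 9.36, 9.63 and 10.5 at WT 24 h, and 6.99, 7.72 and 7.78 in MKP5-/- cells. The WT 24 h libraries were above the other 6, which overlapped. Ireb2 rose 1.21-fold in WT cells (log2 fold change 0.27, SE 0.0717, adjusted p = 0.00673 with limma) and was 1.31-fold lower in MKP5-/- than in WT cells at 24 h (log2 fold change -0.39, adjusted p = 0.00263). The difference of -0.12 between MKP5-/- and WT 0 h cells was not called (adjusted p = 0.185).

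**Figure D3:**
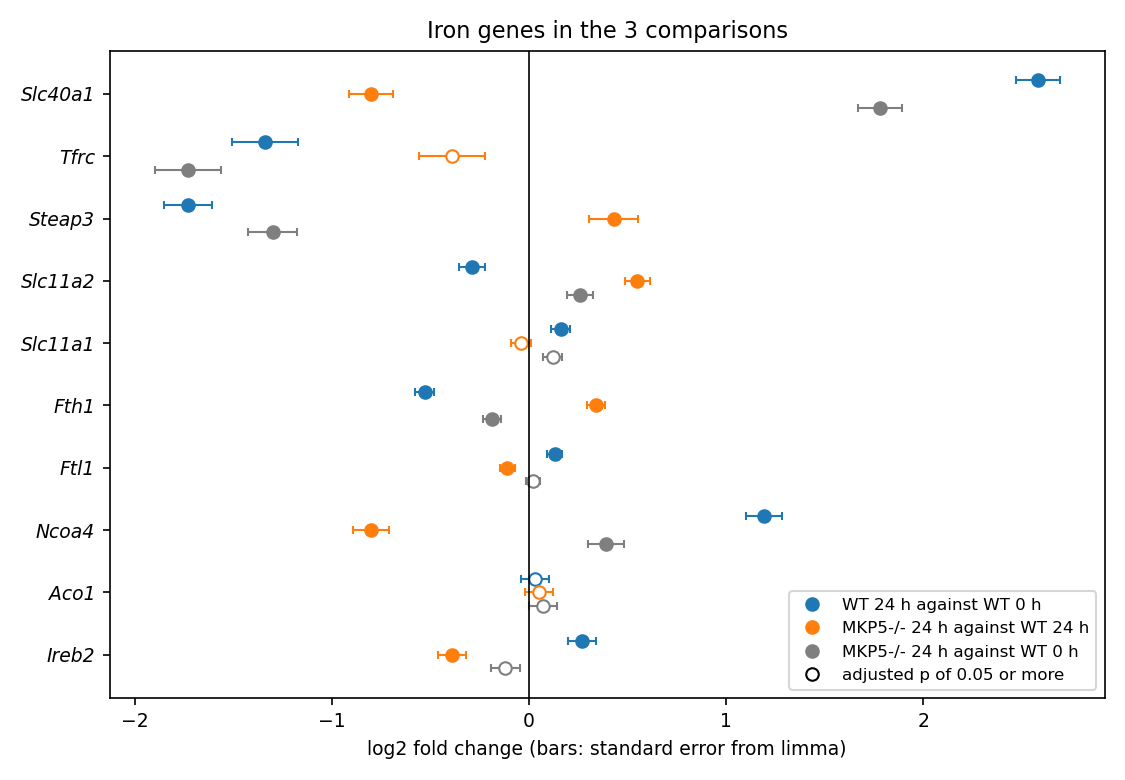
Log2 fold changes of the 10 iron genes (points) with their standard errors from limma (bars) in the 3 comparisons; filled points are called at an adjusted p below 0.05 and open points are not. Slc40a1 lies at 2.58 for WT 24 h against WT 0 h and at -0.80 for MKP5-/- 24 h against WT 24 h, and Ncoa4 at 1.19 and -0.80.

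The changes of the 7 genes called between the genotypes stand side by side here. The log2 fold changes, first WT 24 h against WT 0 h and then MKP5-/- against WT 24 h, were 2.58 and -0.80 for Slc40a1, 1.19 and -0.80 for Ncoa4, -0.53 and 0.34 for Fth1. They were -0.29 and 0.55 for Slc11a2, 0.27 and -0.39 for Ireb2, -1.73 and 0.43 for Steap3, and 0.13 and -0.11 for Ftl1. Both comparisons use the WT 24 h libraries, so the signs within a pair are not independent. None of the 10 genes reached a fold of 2 between the genotypes at 24 h, where 5.58% of all genes were called with such a fold. Over 24 h in WT cells 4 did (Slc40a1, Steap3, Tfrc and Ncoa4), where 17.0% of all genes were called with such a fold. Between MKP5-/- and WT 0 h cells 3 did (Slc40a1, Tfrc and Steap3), against 16.3% of all genes called with such a fold.

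Ordered by level per length, Ftl1, Fth1 and Slc11a1 stood first in every group, and no 2 neighbours among them overlapped. At WT 0 h the order went on with Steap3, Ncoa4, Tfrc, Aco1, Slc40a1, Slc11a2 and Ireb2, where Tfrc overlapped Aco1 and Aco1 overlapped Slc40a1. At WT 24 h it was Slc40a1, Ncoa4, Aco1, Ireb2, Slc11a2, Steap3 and Tfrc, of which the last pair overlapped. In MKP5-/- cells it was Slc40a1, Ncoa4, Aco1, Slc11a2, Steap3, Ireb2 and Tfrc, and Steap3 overlapped Ireb2. Slc40a1 thus stood 8th of the 10 at WT 0 h and 4th in both treated groups, and Tfrc went from 6th to last.

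By Pearson's r of the log2 values over the 9 libraries, the genes most like Slc40a1 were Gna12 (0.998), Entpd1 and Chd6 (both 0.997). Those most like Ncoa4 were Raph1 and Arhgap19 (both 0.997) and Itga4 (0.996). Tfrc was most like Nup88 (0.998), Srp72 and Mtfr1 (both 0.994), and Steap3 most like Nat10 (0.997), Mogs and Srm (both 0.996). Fth1 went with Ctsz (0.989), Cass4 (0.988) and Galnt7 (0.985), and Slc11a2 with Fam117a (0.981), Slc15a3 (0.977) and Pparg (0.975). Ireb2 went with Cyp39a1 (0.982), Fnbp1 (0.981) and Exoc6 (0.978), Ftl1 with Inpp4b (0.979), Rfx2 (0.976) and Atg101 (0.972), and Slc11a1 with Nrp2 (0.972), Tmem159 (0.970) and Tle6 (0.960). Aco1, which was not called between any groups in the main fit, reached 0.942 with Rpl34, 0.916 with Catsperg1 and 0.912 with Tmbim6. These 9 points form 3 groups and share their libraries, so a high r says mainly that the group means line up.

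Of 83 further iron genes in 6 lists, 69 were tested. Their counts stand beside the shares of all genes given above, 27.4% called higher and 28.1% lower over 24 h in WT cells, and 11.8% and 16.9% between the genotypes at 24 h. Over 24 h in WT cells, 3 of the 8 other iron transport genes tested were higher, 3 lower and 2 not called, beside 55.6% of all genes called. Trf, encoding transferrin, had a level of 20.2 to 23.9 at WT 0 h, 99.1 to 142 at WT 24 h and 121 to 157 in MKP5-/- cells, a log2 fold change of 2.51 in WT cells (adjusted p = 1.04e-07 with limma) and an uncalled 0.23 between the genotypes (adjusted p = 0.22). Hfe, encoding a partner of the transferrin receptors, rose by 2.04 on the log2 scale in WT cells (adjusted p = 4e-09) and was lower in MKP5-/- than in WT cells at 24 h (log2 fold change -0.61, adjusted p = 0.000252). Its levels of 8.27 to 9.08, 32.1 to 39.6 and 22.5 to 23.9 were fully separate.

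Slc39a14, encoding ZIP14, an importer of iron not bound to transferrin, had a level of 4.38, 4.56 and 4.14 at WT 0 h, 1.70, 1.65 and 1.6 at WT 24 h, and 2.40, 2.20 and 2.42 in MKP5-/- cells. It fell by 1.40 on the log2 scale in WT cells (adjusted p = 3.54e-07 with limma) and was 0.50 higher in MKP5-/- than in WT cells at 24 h (adjusted p = 0.00344). Its relative Slc39a8 was lower in MKP5-/- cells (log2 fold change -0.67, adjusted p = 0.0146). Cp, encoding the ferroxidase ceruloplasmin, rose by 2.27 in WT cells (adjusted p = 0.000552) from 14 to 37 reads per library to 97 to 223. Lcn2, encoding the siderophore-binding lipocalin-2 that neutrophils carry, had 156, 175 and 168 reads at WT 0 h, 3, 0 and 2 at WT 24 h, and 0, 6 and 4 in MKP5-/- cells. It moved with the neutrophil markers given above, whose part in its change was not tested. Between the genotypes at 24 h, 2 of the 8 genes were higher, 2 lower and 4 not called, beside 28.8% of all genes called. Hamp, encoding hepcidin, and Hephl1 had 0 reads in all libraries.

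Of the heme iron genes, 4 of 13 tested were higher, 5 lower and 4 not called over 24 h in WT cells, near the 27.4% and 28.1% of all genes. The higher ones were Abcg2 (log2 fold change 1.73, adjusted p = 1.84e-05 with limma), a heme and drug exporter, Lrp1 (0.80, adjusted p = 3.3e-06), a receptor for heme bound to hemopexin, Blvrb (0.70, adjusted p = 5.72e-07), a biliverdin reductase, and Slc48a1 (0.67, adjusted p = 2.13e-06), which carries heme out of the phagolysosome. Flvcr1, which exports heme from cells, fell by 0.65 (adjusted p = 1.02e-05). Hmox1, the inducible heme oxygenase that frees iron from heme, was lower at 24 h, at a level of 173 to 187 before and 118 to 135 after (log2 fold change -0.51, adjusted p = 0.000452). Hp, encoding haptoglobin, which neutrophils also carry, had 43 to 46 reads at WT 0 h and 1 to 12 at WT 24 h. Between the genotypes, 11 of the 13 were not called. The 2 that were called were Pgrmc1, a heme-binding membrane protein (0.53, adjusted p = 0.000108), and Hmox2, the constitutive heme oxygenase (-0.19, adjusted p = 0.034).

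Of the iron-sulfur assembly genes in mitochondria, 11 of 18 tested were lower (28.1% of all genes were), 2 higher and 5 not called in WT cells, with a median log2 fold change of -0.40 beside 0.00 for all genes. Hspa9, the chaperone mortalin, had a level of 97.8, 112 and 103 at WT 0 h, 34.5, 29.4 and 29.7 at WT 24 h, and 33.3, 35.8 and 35.6 in MKP5-/- cells (log2 fold change -1.74 in WT cells, adjusted p = 7.98e-09 with limma). Fdx1, a ferredoxin, fell by 0.69 in WT cells (adjusted p = 0.00162 with limma). It was not called between the genotypes at 24 h (-0.33, adjusted p = 0.107), and was -1.02 in MKP5-/- against WT 0 h cells (adjusted p = 0.000105). The genotypes at 24 h differed in 4 of the 18: 1 was higher (Bola3) and 3 were lower, Fdxr and Hscb among them, where 28.8% of all genes were called. In the cytosol, 5 of 8 were lower, none higher and 3 not called in WT cells (28.1% of all genes were lower), with a median of -0.35, and Ciapin1 fell by 1.05 (adjusted p = 3.97e-05). Between the genotypes, 2 of the 8 were higher (Nubp2 and Ciao2b), 2 lower (Ciao2a and Mms19) and 4 not called.

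In heme synthesis, 6 of 11 tested were lower, 3 higher and 2 not called over 24 h in WT cells, beside 28.1% and 27.4% of all genes, with a median of -0.31. The 3 higher ones were Alas1, Urod (log2 fold change 0.38, adjusted p = 0.00445 with limma) and Fech (0.30, adjusted p = 0.0116). Alas1 encodes the enzyme of the first and rate-limiting step. Its level was 11.8, 11.2 and 11.4 at WT 0 h, 18, 16.8 and 18 at WT 24 h, and 26.1, 27.3 and 29.7 in MKP5-/- cells, with no overlap. The log2 fold change was 0.62 in WT cells over 24 h (adjusted p = 5.68e-06 with limma) and 0.65 between MKP5-/- and WT cells at 24 h (adjusted p = 4.62e-05). Cpox, of a later step, fell by 0.75 in WT cells (adjusted p = 0.0002) and was not called between the genotypes (0.11, adjusted p = 0.486). Between the genotypes 2 were higher (Alas1 and Alad), 2 lower (Fech and Urod) and 7 not called, beside 28.8% of all genes called.

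Of the genes of iron chaperones and sensing, 4 of 11 were higher, 4 lower and 3 not called over 24 h in WT cells, where 27.4% and 28.1% of all genes were called. The paired iron chaperones went apart: Pcbp1 fell by 0.51 (adjusted p = 1.1e-06 with limma) and Pcbp2 rose by 0.49 (adjusted p = 3.39e-06). Bach1, encoding a heme-sensing repressor whose known targets include ferritin, ferroportin and heme oxygenase genes, rose by 0.49 in WT cells (adjusted p = 2.82e-05) and was -0.28 in MKP5-/- against WT cells at 24 h (adjusted p = 0.00602). Keap1, encoding the inhibitor of NRF2, fell by 0.48 in WT cells (adjusted p = 4.17e-05). Tax1bp1, encoding an autophagy receptor in ferritin turnover, was lower in both steps, at -0.24 (adjusted p = 0.00801) and -0.30 (adjusted p = 0.00633). Between the genotypes at 24 h, 1 of the 11 was higher, 3 were lower and 7 were not called, where 28.8% of all genes were called.

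**Figure D4:**
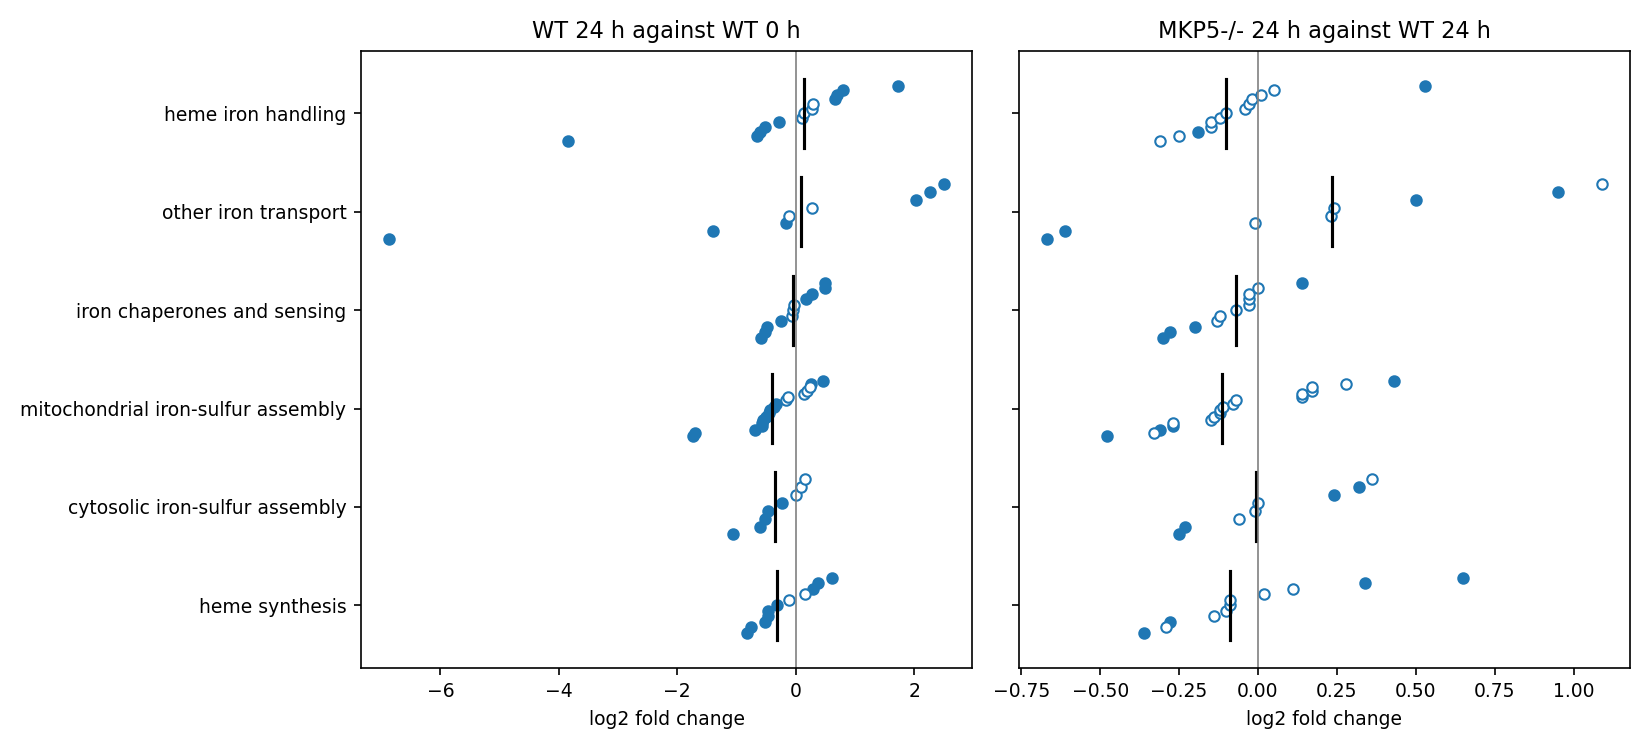
Log2 fold changes of the tested genes of 6 further iron lists (points; filled if called at an adjusted p below 0.05, open if not) with the list median (vertical bar), for WT 24 h against WT 0 h (left) and MKP5-/- 24 h against WT 24 h (right); the 2 horizontal axes differ in range. On the left, mitochondrial iron-sulfur assembly has a median of -0.40; on the right, 14 of its 18 genes are open points.

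Promoter windows from RefSeq (GRCm38.p6) around the starts of genes were searched on both strands for TGACNNNGC, TGANTCA and CACGTG, the core letters of the antioxidant response element, the AP-1 site and the E-box. Of 32851 windows, 12.4%, 7.81% and 7.15% held them. Slc40a1 and Slc11a2 had no window in the set used and were not searched. Among the windows of the other 8 of the 10 genes, 1 Ncoa4 window held 1 match of TGACNNNGC, 44 bases before the start. None held TGANTCA or CACGTG. The absence of these letters says nothing about sequence outside the windows.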

How the data were processed

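RNA of 9 libraries was sequenced by a company from 1 µg of total RNA each, per the labels' protocols, and, per the submitters' processing notes, aligned with STAR to GRCm39. The aligner version, the annotation, the counting tool and the use of strand were not given in the sources used here. Genes that overlap others or have close copies are therefore uncertain. Per the file headers, the deposited values are log2 normalized counts with 1 TMM factor per library. The values followed log2 of reads plus 0.5, per kb of exon, plus a constant per library. With GENCODE M21 exon lengths, 94.1% of checkable genes came out as whole reads (tolerance 0.004 reads plus rounding). Of the 10 genes, 7 were checked this way. Fth1, Ftl1 and Slc11a1 had too many reads to check. Depth was derived from that constant and the TMM factor.

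A gene was tested if 3 or more libraries held 10 reads of it (counted at median depth) and all libraries together 15, which 14726 genes met. The deposited log2 values were fitted with limma 3.58.1 (R 4.3.3, statmod 1.5.0, trend and robust options, 1 mean per group), two-sided, with Benjamini-Hochberg adjustment. The procedure was also run on simulated counts in which fewer genes changed than were called here. That run does not test the calls made here. Other steps used Python 3.11.15, numpy 2.4.6, pandas 2.3.3, scipy 1.17.1 and matplotlib 3.10.9. The genes and lists were chosen with earlier results of these data known. All 10 genes are named. Of other lists, the rule named called genes with a log2 change of at least 1 and up to 3 of smallest p per list and comparison; Hmox1, Bola3, Mms19, Urod, Hamp, Hephl1 and Ncoa4-ps were added after their values were seen. Shared replicate numbers were not taken to pair the libraries. Some genes that the rule names are not reported here.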

Additional observations from a re-analysis of the deposited data

How the results depend on the processing

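Each log2 fold change of the 10 genes was recomputed under 18 alternatives (scaling, added reads, filters, variance model, groups in the fit, replicate block, pseudogene reads and each left-out library), and 18 of the 30 kept their direction and side of the threshold in all of them. Of 540 values, 503 kept both, 22 lost a call, 8 gained one and 7 changed sign, all 7 from uncalled values. Those that changed sign were Slc11a1 in MKP5-/- against WT 24 h cells (0.046 with upper-quartile scaling, 0.0059 with relative log expression scaling, 0.003 without WT 24 h replicate 3, with left-out libraries spanning -0.072 to 0.003), Aco1 in WT cells over 24 h (-0.016 without WT 0 h replicate 1, -0.015 without WT 24 h replicate 3, spanning -0.016 to 0.088), Ftl1 in MKP5-/- against WT 0 h cells (-0.016 without MKP5-/- replicate 3, spanning -0.016 to 0.039) and Ireb2 in the same comparison (0.0092 with upper-quartile scaling). The cause was not tested. Without 1 library at a time, the genes called numbered 7465 to 8452 for WT 24 h against WT 0 h, 2845 to 4032 for MKP5-/- against WT 24 h and 7220 to 8306 for MKP5-/- against WT 0 h.

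With the replicate number as a block, 8221, 4394 and 8450 genes were called in the 3 comparisons, against 8184, 4235 and 8303 without it, and among the 10 genes only Slc11a1 in MKP5-/- against WT 0 h cells changed its call (0.12, adjusted p = 0.0419). Deviations of same-numbered libraries correlated at -0.02 to 0.19, over 0.1 in 2 of 9 pairs, and 4 of 9 libraries correlated best with their own number, so the numbers were not taken to pair the libraries.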
